A study of Mus musculus with 2 samples.

Results

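The lncRNA genes described here start close to a protein-coding gene that runs the other way. From a table of gene expression and allelic read counts of mouse embryonic stem cells (mESCs), all lncRNA genes with a TPM of at least 1 were taken whose transcription start site (TSS) lies within 2 kb of the TSS of a coding gene on the opposite strand, except 7 genes left out by name (Gas5, Snhg1, Snhg9, Snhg10, Snhg18, Platr20 and Platr23). This gave 807 of 2309 lncRNA genes with a TPM of at least 1 (35.0%). TPM is a level scaled by length and library size, here over the whole transcribed region with exons and introns, and was the value that chose the genes. The nearest coding record on the other strand was taken as the partner, which gave 801 partner genes, 6 of them next to more than 1 lncRNA gene. All partner genes are classed as protein-coding, but in 134 of the 807 pairs the nearest partner record is a transcript of that gene that is itself of lncRNA type, among them those of D16Ertd472e, Fbxw9, Rai14, Zfp410 and Serinc3. Total RNA came from F123 cells, male mESCs whose paternal genome is CAST and whose maternal genome is S129, taken off feeder cells before harvest. There was 1 group with 2 replicates and no treatment or second genotype. F123 is a single hybrid line of 1 cross direction, so strain and parent of origin cannot be told apart. The table gives 1 value per gene for both replicates, and how they were combined is not given in the sources used here, so the spread between replicates is unknown and each p-value, interval and standard error below covers counting error only.

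Many mammalian promoters are transcribed in both directions, and the RNA made away from the coding gene is often unstable, short and kept in the nucleus. Some of these RNAs are spliced and stable enough to be annotated as lncRNA genes, and those in mESCs are frequently next to genes of transcription and development. In a hybrid line, a base that differs between the strains marks which chromosome a read came from, so the balance between both parental copies can be read for the lncRNA and its partner separately.

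The layout of the pairs split the set almost evenly. In 404 pairs the genes stood back to back, with the start sites between the transcribed regions, and in 403 pairs the regions overlapped. An overlapping pair could have 1 start inside the other gene, or share only the 3′ ends of both regions. The label of a divergent promoter therefore described only the first kind. Back-to-back start sites were 195.5 bp apart in the median (quartiles 104 and 419 bp) and 204 pairs lay within 200 bp, whereas overlapping start sites were 536 bp apart (quartiles 262.5 and 819.5 bp) and 73 pairs lay within 200 bp. The libraries were made with a stranded kit, but the strand setting of neither the allelic counts nor the TPM counts is given in the sources used here. Without it, reads of a gene and its overlapping antisense partner cannot be told apart in these counts, and results are given for each layout.

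**Figure D1:**
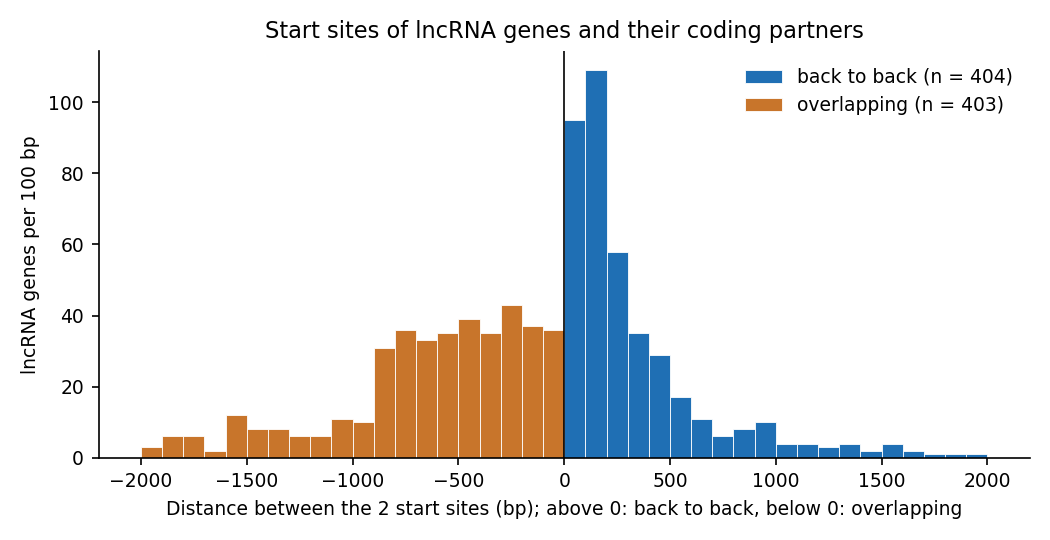
Distance between the TSS of each lncRNA gene and that of its coding partner in base pairs (x axis) against the number of lncRNA genes per 100 bp (y axis), for 404 back-to-back pairs above 0 and 403 overlapping pairs below 0. The back-to-back pairs pile up within 200 bp, and the overlapping pairs spread more widely, with quartiles of 262.5 and 819.5 bp.

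The sequences of 6 back-to-back promoters are shown, because both start sites of the pair fall into 1 window and the allelic counts of each pair are described below. The windows are those of RefSeq (GRCm38.p6), run from 250 bases before to 50 bases after the RefSeq start of the gene named first and are written 5′ to 3′ on that gene's strand. Capitals mark the bases from one deposited TSS to the other, and the strand and window follow each name. The deposited TSS can differ from the RefSeq start at base 251. At Abhd2 and Rps13 the capitals end at bases 184 and 246.
Jmjd7 and Gm13999, plus strand, chr2:120027233-120027532: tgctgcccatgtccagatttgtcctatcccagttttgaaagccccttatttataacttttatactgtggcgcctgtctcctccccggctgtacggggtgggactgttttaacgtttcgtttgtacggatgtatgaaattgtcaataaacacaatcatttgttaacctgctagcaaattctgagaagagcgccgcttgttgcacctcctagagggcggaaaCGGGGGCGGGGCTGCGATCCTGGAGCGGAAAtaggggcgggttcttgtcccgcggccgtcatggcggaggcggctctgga
4930478L05Rik and D16Ertd472e, plus strand, chr16:78560066-78560365: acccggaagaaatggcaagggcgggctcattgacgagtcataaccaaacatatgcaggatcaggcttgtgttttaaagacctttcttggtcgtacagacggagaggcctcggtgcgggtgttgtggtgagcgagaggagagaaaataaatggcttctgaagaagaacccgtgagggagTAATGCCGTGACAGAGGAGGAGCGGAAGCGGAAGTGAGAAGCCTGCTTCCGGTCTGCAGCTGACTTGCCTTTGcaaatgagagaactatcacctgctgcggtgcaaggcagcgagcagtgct
Slco4c1 and Panct2, minus strand, chr1:96872122-96872421: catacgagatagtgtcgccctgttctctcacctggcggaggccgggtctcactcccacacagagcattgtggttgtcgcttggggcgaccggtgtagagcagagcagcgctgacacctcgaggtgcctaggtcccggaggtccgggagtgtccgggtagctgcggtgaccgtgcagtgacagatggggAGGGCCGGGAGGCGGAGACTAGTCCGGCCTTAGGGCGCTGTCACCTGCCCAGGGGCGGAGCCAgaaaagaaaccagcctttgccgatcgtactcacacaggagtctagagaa
Rps13 and Gm44777, minus strand, chr7:116334141-116334440: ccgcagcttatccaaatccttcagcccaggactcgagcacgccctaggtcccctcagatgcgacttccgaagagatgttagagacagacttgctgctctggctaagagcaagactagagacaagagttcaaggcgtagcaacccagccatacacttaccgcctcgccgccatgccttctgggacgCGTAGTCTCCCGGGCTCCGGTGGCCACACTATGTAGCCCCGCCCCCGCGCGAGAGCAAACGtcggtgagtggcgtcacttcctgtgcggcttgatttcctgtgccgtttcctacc
Abhd2 and Gm31510, plus strand, chr7:79273016-79273315: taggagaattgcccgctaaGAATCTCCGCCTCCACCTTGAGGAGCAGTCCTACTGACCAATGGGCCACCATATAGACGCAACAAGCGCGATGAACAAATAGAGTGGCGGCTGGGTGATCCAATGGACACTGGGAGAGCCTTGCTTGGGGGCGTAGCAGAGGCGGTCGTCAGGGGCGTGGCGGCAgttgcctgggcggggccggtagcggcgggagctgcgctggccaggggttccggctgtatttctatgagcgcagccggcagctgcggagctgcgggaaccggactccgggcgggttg
Kat7 and Gm11520, minus strand, chr11:95310197-95310496: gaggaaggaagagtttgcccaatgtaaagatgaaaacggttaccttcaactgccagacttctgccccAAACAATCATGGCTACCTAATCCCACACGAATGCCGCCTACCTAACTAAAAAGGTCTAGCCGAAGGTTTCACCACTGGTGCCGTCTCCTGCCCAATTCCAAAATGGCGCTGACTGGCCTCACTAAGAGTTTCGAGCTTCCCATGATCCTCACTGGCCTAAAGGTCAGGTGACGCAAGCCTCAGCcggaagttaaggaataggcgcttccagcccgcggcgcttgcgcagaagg
The stretch between the start sites spans 31 bases at Jmjd7 and Gm13999, 73 at 4930478L05Rik and D16Ertd472e, 63 at Slco4c1 and Panct2, 61 at Rps13 and Gm44777, 165 at Abhd2 and Gm31510 and 184 at Kat7 and Gm11520. The windows hold 14 to 24 CpG dinucleotides each. The GC box core GGGCGG was found in 5 of the 6 windows on either strand and was missing from the Kat7 window. CCAAT was found at 2 places each in the Kat7 and Abhd2 windows.

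The lncRNA windows were rich in CpG. A RefSeq window with a start within 100 bp of the deposited TSS was found for 216 of the 807 lncRNA genes and for the partner records of 430 pairs. The lncRNA windows had a median GC content of 65.2% and 25 CpG per 300 bases, and the partner windows, of which 428 were distinct, had 62.3% and 24. The windows of 249 other lncRNA genes with a TPM of at least 1 had 51.7% and 6, and all 32851 windows of the table had 52.7% and 7. Windows of both genes of a close pair cover partly the same bases. Back-to-back lncRNA windows held more CpG (30 in the median, 134 windows) than overlapping ones (16.5, 82 windows). Motif letters were searched on both strands. GGGCGG was in 63% of the lncRNA windows, 69.6% of the partner windows, 32.1% of the other lncRNA windows and 35.7% of all windows. CCGGAA, a core bound by ETS factors, was in 29.2% of the lncRNA windows, 38.8% of the back-to-back ones, 37.9% of the partner windows and 14.9% of all windows. TATAAA, the core of the TATA box, was in 3.7% of the lncRNA windows against 12% of the other lncRNA windows and 13.6% of all windows. CCAAT, a core bound by NF-Y, was in 30.6% of the lncRNA windows and 37.4% of all windows. These shares describe letters in the windows and not sites that are bound. The 30 windows of lncRNA genes called as allele-specific below had a median of 22.5 CpG, and the 134 windows of biallelic ones had 26.

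Most of the lncRNA genes had a low level. In this bulk RNA, fewer cells that express a gene and less RNA per cell cannot be told apart. Their TPM ran from 1.00 to 2938 with a median of 3.57 (quartiles 1.91 and 9.51), 475 lay below 5, 196 reached 10 and 27 reached 50. The median over the 1502 other lncRNA genes with a TPM of at least 1 was 3.42. Partners had a median TPM of 7.43 (quartiles 2.93 and 18.1), and 76 partner records were below 1. The partner had the higher TPM in 495 pairs and the lncRNA in 312, with a median log2 ratio of lncRNA over partner of -0.56, which is 0.68-fold on the linear scale. Because the lncRNA genes were chosen by a TPM minimum and the partners were not, this ratio is a description without a test. Among pairs with a lncRNA TPM of at least 5 the median log2 ratio was 0.39, so its sign depends on the minimum. The ratio differed between layouts, with -1.12 in back-to-back pairs (medians 3.07 and 8.05 TPM) and -0.24 in overlapping pairs (4.47 and 6.90 TPM). Across pairs the TPM of lncRNA and partner had a Spearman correlation of 0.10 back to back (404 pairs) and 0.47 overlapping (403 pairs). The overlapping pairs share bases, and all pairs share the libraries. Over exons alone 233 of the lncRNA genes had a TPM below 1 and 85 of the 807 had an exon TPM at least 10-fold below that of the whole region.

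**Figure D2:**
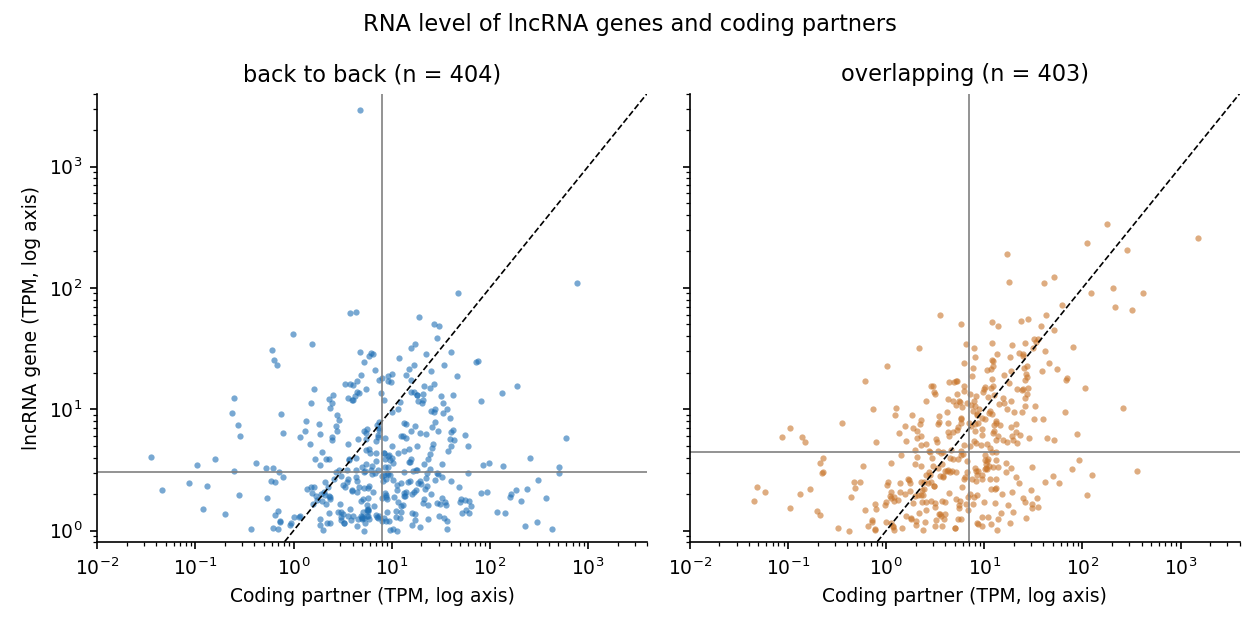
TPM of the coding partner (x axis, log scale) against TPM of the lncRNA gene (y axis, log scale) for 404 back-to-back and 403 overlapping pairs, with grey lines at the medians and a dashed line at equal TPM. The back-to-back pairs form a wide cloud with the higher value mostly on the partner side, and the overlapping pairs follow the dashed line more closely.

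The 8 highest values were mostly found in overlapping pairs. Rmrp (chr4:43492783-43493063), the RNA part of the nuclease RNase MRP that cuts ribosomal RNA precursors, had a TPM of 2938 and stood back to back, 326 bp from Ccdc107 with a TPM of 4.75. The other 7 lay inside or across their partner. Gm12999 had 337 TPM beside 178 for Atpif1, an inhibitor of the mitochondrial ATP synthase. Gm20628 had 257 beside 1507 for the histone gene Hist2h2bb. These levels cannot be split by strand. Gm50037 reached 235 TPM with Pfdn6, a prefoldin subunit, at 112. Gm50251 reached 206 with Ppp1ca, a catalytic subunit of protein phosphatase 1, at 287. Gm20490 and Gm50203, in the RNA-binding gene Rbm38 and across the splicing factor gene Sf3b2, had 192 and 124 TPM against 17 and 50.7. Gm17300 had 112 TPM beside 17.7 for Rcc1, the exchange factor of the GTPase Ran.

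At the other end, a lncRNA at a few TPM stood beside some of the most abundant mRNAs of the cell. The lowest ratio was that of Gm47438, with 1.04 TPM 303 bp from Atp5b, the catalytic beta subunit of ATP synthase, with 432 TPM. Gm49889 had 1.19 TPM beside 302 for the ribosomal protein gene Rpl10a, and 0610009L18Rik had 1.85 beside 371 for the cytoplasmic actin gene Actg1. In all, 82 lncRNA genes were at least 10-fold below their partner. The reverse was seen in 43 pairs, among them Zfas1, a host of small nucleolar RNAs, with 62.4 TPM against 3.8 for Znfx1, and 4632427E13Rik with 34.4 against 1.56 for the vesicle traffic gene Rab30. The genes of this paragraph except Zfas1 were picked after their values were seen.

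The cells had the markers of their label. All 10 mESC markers looked up were between 12.1 and 483 TPM (sum 1905), 6 genes of early differentiation were between 1.74 and 21.4, and 8 fibroblast genes summed to 14.9, with 4 of them below 1. Allelic reads over all records summed to 16343693, 50.4% of them CAST. The lncRNA genes of the pairs held 85576 CAST and 81723 S129 reads (51.2% CAST). A read that covers several variants counts at each, so the reads are not independent molecules. Of the 807 lncRNA genes, 552 had allelic reads, with a median of 72 reads (8 to 4640) at 3 variants, and 221 of them rested on 1 or 2 variants. Their partners were deeper, with 654.5 reads at 19 variants in the median, so a partner's share is known more precisely than that of its lncRNA.

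Allele-specific expression (ASE) was called where the two-sided exact binomial test against equal shares gave a Benjamini-Hochberg adjusted p of at most 0.05 over all records, the alleles differed at least 2-fold and the TPM was at least 1. It was found in 122 of the 552 lncRNA genes (22.1%), 69 with more CAST and 53 with more S129 reads. With a read correlation of 0.01 or 0.05 in the test, 95 or 33 of the 122 calls were left (17.2% or 5.98% of the 552). The shares of all records under these correlations were not computed. Without a correlation, 14.1% of all records with allelic reads and a TPM of at least 1 were ASE. Among them, 22.3% of the lncRNA genes and 13.2% of the coding records were ASE, so the 22.1% was close to the share of all lncRNA genes. CAST calls made up 12.5% and S129 calls 9.60% of the tested lncRNA genes, against 8.33% and 5.78% of all records. By layout, 66 of 291 back-to-back (22.7%) and 56 of 261 overlapping lncRNA genes (21.5%) were called. Among the partners, 76 of 684 were ASE (11.1%), 47 CAST and 29 S129. The share varied with depth. At 100 reads or more, 49 of 245 lncRNA genes of the pairs were ASE (20%, exact 95% interval 15.2 to 25.6), 132 of 594 other lncRNA genes (22.2%, 18.9 to 25.8) and 1263 of 11346 coding records (11.1%, 10.6 to 11.7). At 50 to 99 reads the shares in this order were 31.2% (21.1 to 42.7), 31.4% (24.3 to 39.3) and 24.3% (21.9 to 26.8). At 20 to 49 reads they were 24.3% (16.7 to 33.4), 24.7% (18.6 to 31.7) and 22.7% (20.3 to 25.4), and at 8 to 19 reads 18.5% (12 to 26.6), 11.5% (7.08 to 17.4) and 12.8% (10.3 to 15.5). Below 100 reads the intervals of the lncRNA genes of the pairs and of the coding records overlapped.

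**Figure D3:**
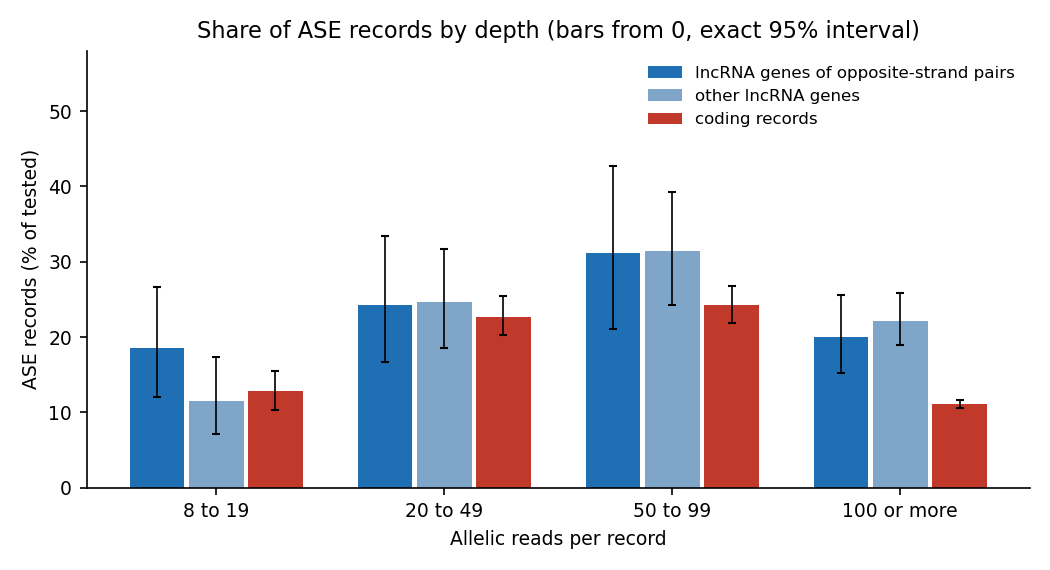
Share of ASE records in percent of those tested (y axis) by the number of allelic reads of the record (x axis), for lncRNA genes of opposite-strand pairs, other lncRNA genes and coding records, with exact 95% intervals that cover counting error only. At 100 reads or more the 2 lncRNA groups lie at 20% and 22.2% and the coding records at 11.1%.

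The differences between alleles ranged widely in size. The fold was under 3 in 40 of the 122 ASE lncRNA genes, from 3 to 5 in 29, from 5 to 10 in 20 and larger, or without a second allele, in 33. The last class held 18 genes with reads of 1 allele, 16 CAST and 2 S129. Of these 18, 17 rested on 1 or 2 variants and 8 had at least 50 reads, and the part of miscalled variants was not tested.

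The ASE lncRNA genes with the largest CAST excess, among those with both alleles and at least 50 reads, reached a log2 fold of 5. Gm29200 was highest with 81 CAST and 2 S129 reads (log2 fold 5.34 ± 1.03), and overlaps the laminin gene Lama3, with 1910 and 566 reads, by 228 bp. 5031425E22Rik (chr5:23431810-23433919) had 77 CAST and 2 S129 reads at 4 variants, a log2 fold of 5.27 ± 1.03 (SE, exact binomial adjusted p = 1.24e-19). It stood 522 bp from Kmt2e, a SET domain protein of the chromatin, whose reads were 356 CAST and 255 S129 (58.3% CAST). Gm31510 (chr7:79271692-79273035) had 136 CAST and 5 S129 reads, a log2 fold of 4.77 ± 0.66 (exact binomial adjusted p = 6.28e-33). Its partner Abhd2, a lipid hydrolase, was nearly balanced with 896 and 790 reads. Gm16275 (chr17:23771841-23777763) had 214 CAST and 14 S129 reads (log2 fold 3.93 ± 0.40), and all 7 of its variants carry the S129 base as the one that differs from the reference genome. Its partner Flywch1, a zinc finger gene, had 286 and 208 reads. Gm13999 (chr2:120024807-120027453) had 82 and 7 reads (log2 fold 3.55 ± 0.57). Gm20628, whose Hist2h2bb partner had 789 CAST and no S129 reads, had 1367 and 43 reads, but overlaps that gene by 381 bp.

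The same choice with S129 in excess gave 6 genes. Myadml2os (chr11:120647670-120657061) had 6 CAST and 97 S129 reads, a log2 fold of -4.01 ± 0.61 (exact binomial adjusted p = 3.81e-21), and its partner Myadml2 was below 1 TPM and had no allelic reads. Gm15701 (chr5:136102604-136104436) had 7 and 66 reads, and Rasa4, a GTPase-activating protein of Ras that overlaps it by 543 bp, had 10.2% CAST. Gm47009 (chr10:120168649-120170345) had 20 and 137 reads and overlaps Irak3, an inhibitor of Toll-like receptor signalling, with 420 and 799. The 3 others stood back to back. Gm11520 (chr11:95310429-95324496) had 12 and 78 reads (log2 fold -2.70 ± 0.45), while Kat7, a histone acetyltransferase, had 1452 and 1857. 2810013P06Rik (chr8:123042466-123044602) had 43 and 181 reads (log2 fold -2.07 ± 0.24), while the chromatin regulator gene Ankrd11 had 6113 and 5390. 2810013P06Rik overlaps 1 other gene of GENCODE M21, which can be the partner gene itself. Gm10389 (chr15:10600293-10611651) had 14 and 48 reads (log2 fold -1.78 ± 0.44), and Rai14, an actin-associated ankyrin protein, had 75 and 252.

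Among lncRNA genes with reads of 1 allele, 5830448L01Rik (chr14:34672465-34673763) had the clearest counts of the back-to-back kind, with 229 CAST and no S129 reads at 5 variants. With a floor of 3 reads the fold is at least 76.3-fold and the S129 share may reach 1.31% (3 of 229 reads), and the exact 95% interval of the CAST share starts at 98.4%. The exact binomial adjusted p was 1e-67. At none of the 5 variants of 5830448L01Rik does the S129 base differ from the reference genome. The same holds for 4933408J17Rik and 0610039K10Rik below, and whether this affects the counts was not tested. Wapl, which releases cohesin from chromatin and starts 410 bp away, had 2554 CAST and 2326 S129 reads (52.3% CAST). Gm44672, 144 bp from the COPII-binding gene Sec23ip, had 105 and 0 reads at 1 variant, and Gm20632, next to the histone gene Hist2h3c2, had 215 and 0 at 2 variants. Neither partner had allelic reads. Overlapping cases were 4933408J17Rik with 460 and 0 reads beside Snrpf, a core protein of the spliceosome, with 682 and 150, and 0610039K10Rik with 121 and 0 beside Serinc3, a membrane protein, with 198 and 27. The Serinc3 record is a transcript of lncRNA type. Gm11175, in the AP-1 gene Jund, had 60 and 0 reads at 1 variant, and its TPM was 99.2 over the whole region and 0.216 over exons. Gm49150, in the replication gene Wdhd1, had 19 and 0 reads beside 1513 and 1736. The S129 cases were 9230116N13Rik with 0 and 8 reads and Gm26935 with 0 and 9, where the CAST share may reach 37.5% and 33.3%. Of these genes, 4933408J17Rik and Gm20632 were named after their values were seen.

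Whether lncRNA and partner differ in CAST share was tested on the reads of both records in 489 pairs. Fisher's exact test was adjusted over all 2005 opposite-strand pairs, with a minimum difference of 1 on the log2 scale. The CAST share differed in 109 pairs (22.3%), against 20.6% of all opposite-strand pairs. By layout, 64 of 259 back-to-back pairs (24.7%) and 45 of 230 overlapping pairs (19.6%) differed, beside 233 of 1121 (20.8%) and 33 of 232 (14.2%) for pairs of 2 coding genes. Of the 109 pairs, 64 had ASE in the lncRNA alone, 21 in the partner alone, 8 in both and 16 in neither. The lncRNA was farther from balance than the partner in 80 of them. Its CAST share was above that of the partner in 58 and below in 51, and in 69 the records lay on opposite sides of equal shares. With a spread between reads of a gene beyond counting error, a correlation of 0.01 left 30 differing pairs (6.13% of the 489). A correlation of 0.05 left 0, so the count depends on how independent the reads are. The shares of all opposite-strand pairs under these correlations were not computed.

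Both records were ASE in 22 of the 489 pairs (4.5%), against 3.59% of all opposite-strand pairs. In 20 of the 22 the same allele was higher, CAST in 14 and S129 in 6. By layout, these were 5 of 6 back-to-back and 15 of 16 overlapping pairs. Among pairs of coding genes with both records ASE, the same allele was higher in 21 of 32 back to back and 4 of 5 overlapping. Whether the lncRNA pairs differ from the coding pairs in this agreement was not tested. Where the lncRNA was ASE, the partner was ASE in 6 of 60 back-to-back pairs (10%) and 16 of 48 overlapping pairs (33.3%). Where the lncRNA was biallelic, it was ASE in 14 of 199 (7.04%) and 15 of 182 (8.24%). The rank correlation of CAST shares showed the same contrast of layouts. With at least 20 reads in each record, it was 0.17 over 193 back-to-back pairs and 0.51 over 170 overlapping pairs. Pairs of coding genes with at least 20 reads had 0.11 (1067 back to back) and 0.23 (217 overlapping). Back-to-back pairs whose lncRNA overlaps no other gene of GENCODE M21 had 0.12 over 61 pairs. At 100 reads or more the lncRNA pairs had 0.25 over 103 and 0.50 over 84 pairs, without a value for coding pairs beside them. All pairs share the libraries and the parental strains, and overlapping records can count the same variant. In 4 overlapping pairs and 1 back-to-back pair both records held the same number of CAST and of S129 reads, as in Gm34939 and Smarcd1 with 13 and 14 each, and how many variants the other pairs share was not tested.

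**Figure D4:**
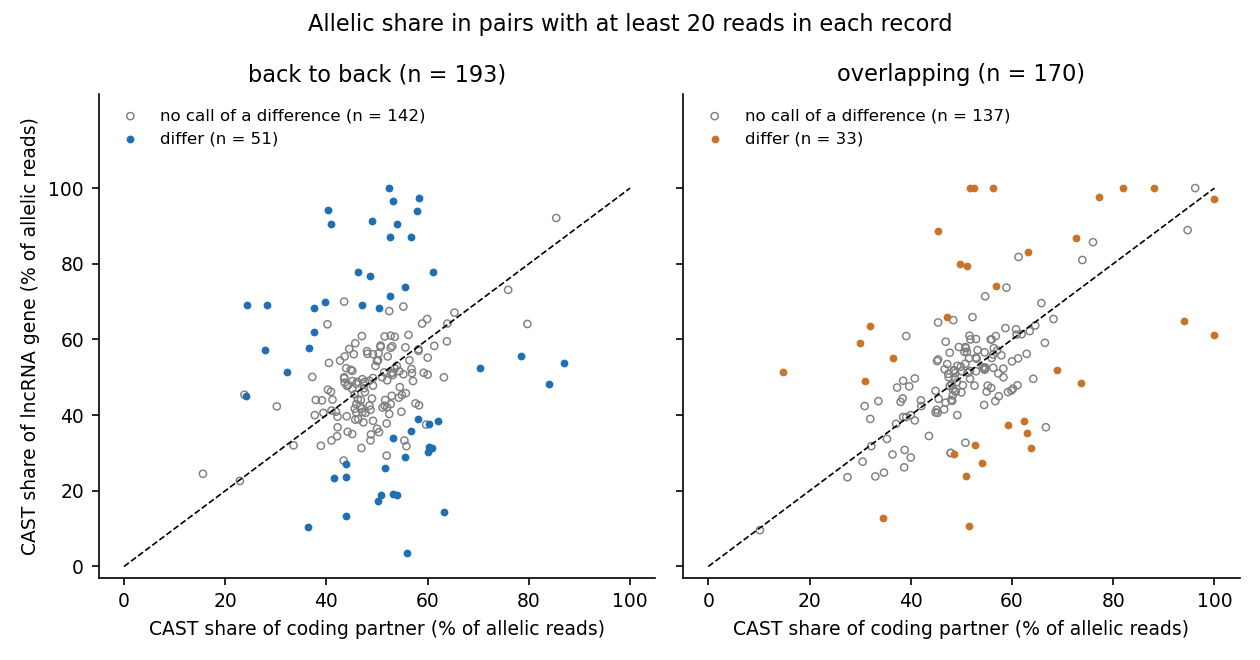
CAST share of the allelic reads of the coding partner (x axis, percent) and of the lncRNA gene (y axis, percent) for 193 back-to-back and 170 overlapping pairs with at least 20 reads in each record, with pairs whose shares differ in colour. Overlapping pairs follow the dashed line of equal shares more closely (rank correlation 0.51) than back-to-back pairs (0.17). Pairs that differ occur in both layouts.

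Back-to-back pairs with ASE on both sides were few, and in 5 of 6 the same allele led. Gm13999 and Jmjd7, which encodes a Jumonji domain hydroxylase, start 30 bp apart and had 92.1% (exact 95% interval 84.5 to 96.8) and 85.4% CAST (81.8 to 88.5). Their difference was not called (Fisher's exact test, adjusted p = 0.223). 2610035F20Rik and Zic2, a zinc finger factor of neural development, had 12 and 0 reads and 81 and 17 reads, again without a called difference (exact adjusted p = 0.335). 4930478L05Rik and D16Ertd472e start 72 bp apart and had 73.1% (68.5 to 77.3) and 75.9% CAST (69.8 to 81.2). 4930478L05Rik overlaps 1 other gene of GENCODE M21, which can be the partner gene itself. With S129 higher, Gm10389 and Rai14 had 22.6% (12.9 to 35.0) and 22.9% CAST (18.5 to 27.9). The partner records of D16Ertd472e and Rai14 are transcripts of lncRNA type. Panct2 and Slco4c1, an organic anion transporter, start 62 bp apart and had 24.5% (13.8 to 38.3) and 15.6% CAST (13.0 to 18.6). In none of these 5 pairs was a difference called, which does not show equal shares. With a read correlation of 0.05, 4 of the 5 lncRNA genes lost the ASE call, Gm13999 being the exception.

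The remaining pair went opposite ways. Gm44777 (chr7:116334255-116335136) had 99 CAST and 44 S129 reads (69.2% CAST, interval 61.0 to 76.7), and Rps13, a protein of the small ribosomal subunit, had 575 and 1465 (28.2%, 26.2 to 30.2). Their start sites are 60 bp apart. The log2 fold of CAST over S129 was higher in the lncRNA by 2.52 ± 0.27 (SE), with an adjusted p of 6.05e-21 in Fisher's exact test. The transcribed regions do not overlap, and Gm44777 overlaps no other gene of GENCODE M21. Under a read correlation of 0.05 neither the call of Gm44777 nor that of the difference remained. Among overlapping pairs with both ASE, Gm15270 and Ccn2, a matrix-associated growth factor, had 48 and 0 and 50 and 2 reads.

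**Figure D5:**
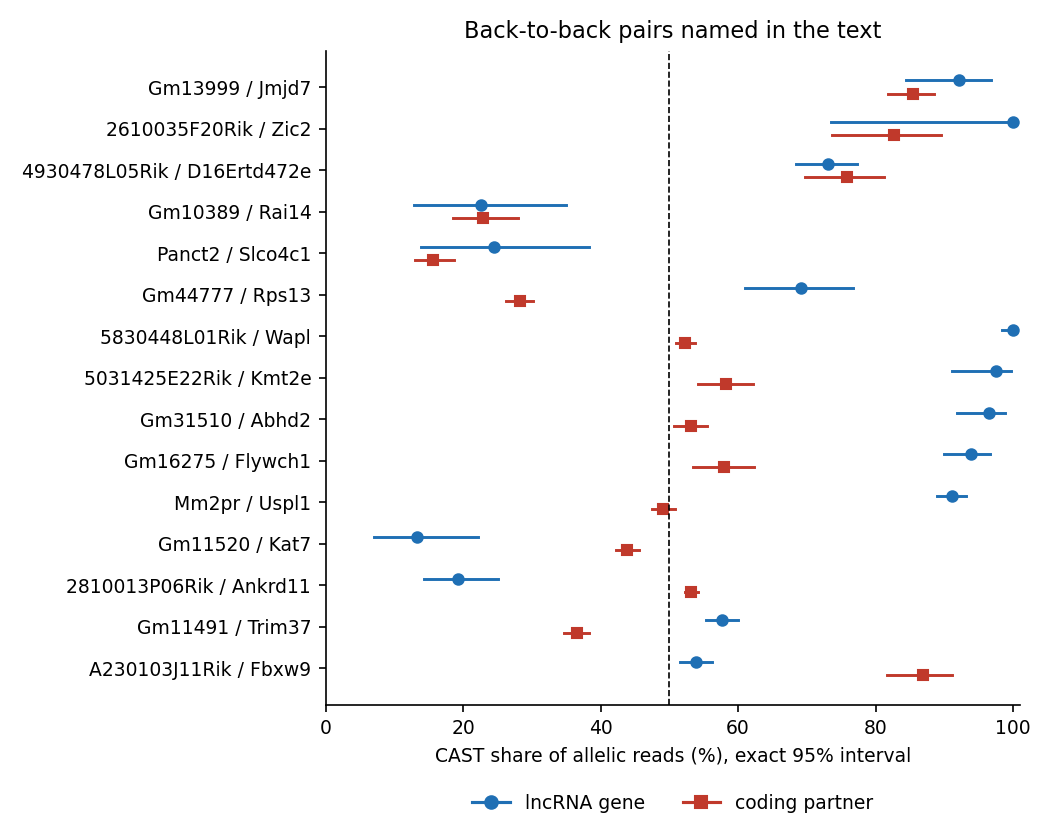
CAST share of allelic reads in percent (x axis) with exact 95% intervals for 15 back-to-back pairs (y axis), circles for the lncRNA gene and squares for the coding partner, with a dashed line at 50%. The partner records of D16Ertd472e, Rai14 and Fbxw9 are transcripts of lncRNA type. In the upper 5 pairs both symbols lie on the same side, in Gm44777 and Rps13 they lie on opposite sides, and in most of the others the partner is near 50% and the lncRNA is not.

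The back-to-back pairs that differed most by their adjusted p mostly had a balanced partner. Mm2pr (chr5:149119565-149184063) had 693 CAST and 67 S129 reads (91.2% CAST) beside 1671 and 1732 for Uspl1, a SUMO protease (Fisher's exact adjusted p = 3.95e-113). Mm2pr spans 6 other genes of GENCODE M21, its TPM was 1.04, and over exons 0.0282. 5830448L01Rik and Wapl followed (exact adjusted p = 7.75e-61), and then Gm11491 and Trim37, a ubiquitin ligase. There the lncRNA had 1020 and 747 reads and the partner 984 and 1715, and neither was ASE. Gm31510 and Abhd2, Gm16275 and Flywch1, and 2810013P06Rik and Ankrd11 had exact adjusted p-values of 1.19e-27, 1.36e-24 and 1.5e-23. In A230103J11Rik and Fbxw9, an F-box gene, the imbalance was on the partner side, with 974 and 833 reads against 185 and 28. The Fbxw9 record is a transcript of lncRNA type, so these reads are not shown to be those of its coding transcript. Of the 64 back-to-back pairs that differed, 24 had a lncRNA that overlaps no other GENCODE M21 gene. Such a lncRNA was in 96 of the 259 tested back-to-back pairs. The share that differed was thus 25% in these 96 pairs and 24.7% in all 259.

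Partners were also grouped by function, from symbol lists chosen with earlier results known. The counts below stand beside 22.1% ASE among all tested lncRNA genes of the pairs, 11.1% among their partners and 22.3% of pairs that differ, and with so few genes per list no difference from these shares is drawn. Mitochondrial genes were partners of 14 lncRNA genes, with a median log2 ratio of -2.21 (medians 4.26 and 29.5 TPM) against -0.56 over all pairs (3.57 and 7.43 TPM). None of the 12 with allelic reads and none of the 13 partners with allelic reads was ASE, and 0 of 11 pairs differed. Tomm6os, in the gene of a small subunit of the import complex, had 678 and 643 reads, and Gm20512, in Tomm40, the import pore, had 934 and 899. Ccdc142os, 53 bp from Mrpl53 of the mitochondrial ribosome, had 3 and 9 reads. B430218F22Rik in Mrps30, of the mitochondrial ribosome, had 194 and 124, and Gm17324 in the tRNA modification gene Mto1 had 25 and 32. Gm30934, in the ATP synthase gene Atp5l, had 28.7 TPM and no allelic reads.

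RNA processing and translation genes had the lowest ratio of the lists, a median log2 of -2.97 over 23 lncRNA genes (medians 3.1 TPM for the lncRNA and 36.2 for the partner). There were 2 CAST and 2 S129 calls among 12 tested. Gm46416 in the helicase gene Ddx41 had 72.1 TPM and no allelic reads, and Gm29361 across the splicing gene Rbm25 had 224 and 207 reads. Gm26533, 114 bp from the RNA polymerase II subunit gene Polr2d, had 95 and 97. The CAST calls were Gm44777 and 4933408J17Rik and the S129 calls 9230116N13Rik and Gm11508, which had 5 and 20 reads in the splicing factor gene Srsf1. Both S129 calls were lost with a read correlation of 0.01, and that of Gm44777 with 0.05. Chromatin genes were partners of 16 lncRNA genes, of which 12 were tested, 1 was CAST and 3 were S129. The shares differed in 4 of the 12 tested pairs, and in 22.3% of all tested pairs. Besides the pairs of Kmt2e and Kat7, these were A230083N12Rik with 4 and 17 reads beside Kdm4c, a histone demethylase, with 2272 and 1947, and Gm5914 with 12 and 38 beside 372 and 359 for Ctcf, the insulator protein. Both were named after their values were seen. The ASE call of A230083N12Rik was lost with a read correlation of 0.01 and that of Gm5914 with 0.05. Dnmt3bos, in the DNA methyltransferase gene Dnmt3b, had 102 and 60 reads and was biallelic by the 2-fold minimum, and Gt(ROSA)26Sor, which hosts a widely used transgene site, had 493 and 469 beside 1954 and 1725 for Setd5. Gm44686, back to back with the remodelling gene Chd2, had 885 and 1170 reads. Gm50336, in the bromodomain gene Brd2, had 23 and 14 reads, and Brd2 had 153 and 88.

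Developmental transcription factors were partners of 18 lncRNA genes, with a median log2 ratio of -0.10, and 3 of 12 tested were CAST and 0 S129. The 3 were 2610035F20Rik at Zic2, Gm4675 with 27 and 6 reads at Sox21, and Dlx1as with 119 and 59 reads (log2 fold 1.01 ± 0.23) 1174 bp from Dlx1. With a read correlation of 0.05 all 3 calls were lost. Dlx1as had 3.63 TPM and Dlx1, a homeobox gene of the forebrain, had 0.412 TPM and no allelic reads. Gm12688 stands 1316 bp from Foxd3, a forkhead factor of pluripotent cells, and had 5 and 7 reads, while Foxd3 itself was S129 with 112 and 386. Lef1os1 (135 and 106 reads) and Lef1 (324 and 251), a factor of Wnt signalling, were both biallelic. Gm20033 at Klf3 and Gm20402 at Foxo1 had 6.01 and 4.56 TPM and no allelic reads. Gm4675 was named after its values were seen. Of 2 pluripotency genes with such a lncRNA, Sall4 had 2490 and 1397 reads and Lin28a, a let-7 regulator, 56 and 25 (CAST). Their lncRNA genes Gm14261 (17.4 TPM) and Gm13061 (9.68 TPM) had no allelic reads.

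Zinc finger genes were partners of 30 lncRNA genes, 20 of them tested, with 2 CAST and 0 S129 calls. Gm47484 (chr12:84313854-84317076) starts 39 bp from Zfp410, a zinc finger factor known to activate the Chd4 gene, and had 1225 and 347 reads at 30 variants (log2 fold 1.82 ± 0.09, exact binomial adjusted p = 7.58e-113) beside 130 and 83. The pair differed (Fisher's exact test, adjusted p = 1.44e-06), and the Zfp410 record is a transcript of lncRNA type. Both CAST calls of this list were lost with a read correlation of 0.05. Zfas1 with 639 and 495 reads and 1700007L15Rik with 28 and 40, 161 bp from Zfp148, were biallelic. So were Gm16845 (510 and 479), Zbtb11os1 (94 and 85) and B130055M24Rik (25 and 29). Cell cycle and DNA repair genes were partners of 14 lncRNA genes, with 4 CAST calls and 1 S129 call among 13 tested. B230354K17Rik, which overlaps the splicing and mitosis gene Cdc5l by 140 bp, was S129 with 36 and 109 reads beside 1499 and 2825. The CAST calls, named after their values were seen, were Gm15270, 2010110K18Rik at the phosphatase gene Cdc25c with 15 and 3 reads, 2900009J06Rik at the cyclin gene Ccnt2 with 81 and 39, and Gm30082. Gm30082, 143 bp from the DNA checkpoint gene Rad9a, had 38 and 4 reads beside 363 and 522 (Fisher's exact adjusted p = 9.29e-10). The calls of 2010110K18Rik and 2900009J06Rik were lost with a read correlation of 0.01, and that of B230354K17Rik with 0.05. Gm16023 at Cdk11b (562 and 759 reads), 9330020H09Rik at Ccnt1 (97 and 106) and 4930512B01Rik at Cdkl1 (883 and 838) were biallelic, and E030037K01Rik at Cdkn2aip had 9.55 TPM and no allelic reads. Gm44732 had 3 and 6 reads in Cdkn1c, an imprinted inhibitor of cyclin-dependent kinases expressed from the maternal copy, which had 4 CAST and 16 S129 reads. The lists rest on the first letters of symbols, so Ccn2 stands among the cyclins and Gatad2b, a chromatin gene whose lncRNA 4930537H20Rik had 3.93 TPM, among the developmental factors.

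By chromosome, the ASE lncRNA genes ran from 6 CAST and 0 S129 of 43 tested on chromosome 2 to 0 and 5 of 22 on chromosome 4 and 1 and 6 of 49 on chromosome 11, beside 12.5% CAST and 9.60% S129 over all chromosomes. These 3 were picked for their counts, and no difference between chromosomes was tested. At the edge of the rule, Gm49870 and Gm15334 were the lowest in the set with 1.00 TPM, and Gm37165 and Gm15747 stayed out with 0.999 and 0.995. By distance, 1810012K08Rik and Gm26672 were inside at 1975 and 1961 bp, and Gm15642 and Gm13556 stayed out at 2011 and 2068 bp.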

How the data were processed

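Total RNA-seq of F123 mESCs (2 replicates) was analysed from 1 deposited table. The authors aligned reads to mm10 with STAR (version 2.7.2c) and the Ensembl annotation, removed duplicates with Picard and counted reads of each allele at variants with GATK; the deposited counts of CAST and S129 reads and of variants are sums over the variants of a gene, with 1 value for both replicates, and how the replicates were combined is not given in the sources used here. The deposited TPM values were made by the authors from HTSeq counts, scaled by length and library size, with 1 transcript kept per gene and biotype. The deposited fraction columns, p-value columns and log2 fold changes hold the authors' own comparison of the alleles and were not used. The methods ask for 20 reads per variant, while records here hold as few as 8. Coordinates follow mm10.

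Members and partners were found as described, and the nearest coding record was the partner. ASE was tested with the two-sided exact binomial test and pairs with Fisher's exact test, both with Benjamini-Hochberg adjustment over the whole table, in Python (version 3.11.15) with scipy (1.17.1), numpy (2.4.6) and pandas (2.3.3), and figures were drawn with matplotlib (3.10.9). The tests were checked on simulated counts of independent reads, so this check does not cover correlated reads. Intervals are Clopper-Pearson. A missing allele was set to 3 reads, which makes its fold a lower bound. Correlations are Spearman's, without a test. Named are the 8 members with the highest TPM, per allele the 6 with the largest fold change (at least 50 reads, both alleles) and the 4 with the highest TPM among those with 1 allele, the 8 pairs with both records ASE and the 8 differing pairs without overlap with the strongest result, up to 6 members per partner list and those at the edges of the rule. The members, lists and tests were chosen with earlier results of these data known.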

Additional observations from a re-analysis of the deposited data

How the results depend on the processing

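The number of ASE lncRNA genes (122, 22.1% of those tested) was 49 (20%) with at least 100 reads, 71 (21.5%) with at least 3 variants and 46 (17.6%) with a TPM of at least 5. It was 66 (22.7%) without overlap and 33 (5.98%) with a read correlation of 0.05. The number of ASE partners (76, 11.1%) was 49 (10.9%) within 500 bp and 27 (7.76%) without overlap. It was 30 (10.1%) with a lncRNA TPM of at least 5 and 19 (2.78%) with a correlation of 0.05. Differing pairs (109, 22.3%) were 40 (21.4%), 60 (22.5%), 46 (19.6%) and 64 (24.7%) with 100 reads, 3 variants, a TPM of 5 and no overlap. With correlations of 0.01 and 0.05 they were 30 (6.13%) and 0. Pairs with both ASE (22, 4.5%) were 7 (3.74%), 11 (4.12%) and 12 (5.11%) with 100 reads, 3 variants and a TPM of 5. They were 6 (2.32%), 13 (4.01%) and 6 (1.23%) with no overlap, 500 bp and a correlation of 0.05. The median log2 ratio (-0.56) was -0.93 within 500 bp, -1.12 without overlap, -0.82 with a partner TPM of at least 1, and reversed to 0.39 with a lncRNA TPM of at least 5. Some alternatives were added after seeing the data. Among lncRNA genes that overlap no other gene there were 26 ASE genes (26.5%) and 10 ASE partners (6.76%). Differing pairs were then 24 (25%), pairs with both ASE 3 (3.12%) and the ratio -1.82. An exon TPM of at least 1 gave 70 ASE genes (18.9%), 69 differing pairs (20.4%) and a ratio of -0.32. Only partner records with a coding transcript gave 115 ASE genes (21.6%), 78 ASE partners (11.7%) and 108 differing pairs (22.5%). Pairs with both ASE were then 20 (4.18%) and the ratio -0.60. Settings that test fewer genes lower the counts by construction. The correlation raises the spread assumed for each gene. Other settings stayed within 1.5 times of these counts, or within the exact 95% interval of the median (-0.77 to -0.43). Of the 37 ASE lncRNA genes named in the text, 17 lost the call with a correlation of 0.05 and 5 with 0.01. No replicate could be left out, and no paired analysis was possible because the table holds 1 value for both replicates. Depth limits the lncRNA genes more than their partners, and 255 lncRNA genes without allelic reads were not tested.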
